A study of Mus musculus with 4 samples.

Results

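GABA-A receptors are chloride channels opened by the transmitter GABA, each built from several subunits around a central pore. The genes described here encode 7 of these subunits: 4 alpha subunits (Gabra2, Gabra3, Gabra4 and Gabra5), 2 beta subunits (Gabrb1 and Gabrb2) and the delta subunit (Gabrd). They were chosen by gene symbol, and all 7 were found, each as 1 entry, among the 23991 gene symbols of the deposited tables. Filters on low values and on small RNA names left 12416 genes to test, and all 7 were among them.

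Which subunits a neuron makes sets where its receptors sit and which drugs and steroids act on them. Alpha and beta subunits form the GABA binding site between them, and the alpha subunit decides much of the response to benzodiazepines. Many receptors with a gamma subunit gather at synapses. Those with delta, often together with alpha4 in the forebrain, lie outside synapses and carry a slow, tonic current. In the amygdala, a region that handles fear, stress and appetite, GABA-A receptors are a site of action of anti-anxiety drugs.

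The study used translating ribosome affinity purification (TRAP), which recovers RNA bound to tagged ribosomes. Amygdala from both sides of NpyCre/+;TRAPlox/lox mice gave immunoprecipitated RNA (IP, 2 libraries) and the total RNA before precipitation (input, 2 libraries), with material of 3 mice pooled per library. Both groups therefore carried the same alleles, a Cre driver at the neuropeptide Y gene Npy and 2 copies of the lox TRAP allele. The labels give no age, sex, diet or stress condition. Cre may also have acted in cells that no longer made Npy when sampled, and no precipitation from mice without Cre was analysed here. For the second IP library the title gives replicate 2 and the source text replicate 1, and the number in the title was used.

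Transcripts of Npy and of GABAergic neurons were enriched in the precipitate. Npy averaged 1204 ± 51.7 FPKM in IP and 102.3 ± 4.38 FPKM in input (SD, n = 2 each), where FPKM, fragments per kilobase of transcript scaled to the mapped total, is a level per length. All 7 markers of GABAergic neurons tested were higher in IP, with a summed level of 1155 and 1268 FPKM in the IP libraries against 293 and 296 FPKM in the input libraries. Of 7 glutamatergic markers, 5 were lower, and the summed level was 415 and 317 FPKM in IP against 722 and 749 FPKM in input. The 7 astrocyte markers summed to 60.7 and 84.1 FPKM in IP against 216 and 243 FPKM in input, with 6 lower. Among them, Slc7a10 is given as 0 FPKM for each IP library and passed the filter on low values through input alone. All 7 oligodendrocyte markers were lower. Over all genes tested, 37% were called higher and 33.9% lower (limma, adjusted p under 0.05). The 6 microglial markers summed to 2.56 and 1.92 FPKM in IP against 36.3 and 31.9 FPKM in input, and since all 6 were below an FPKM of 1 in both IP libraries and passed the filter through input alone, no count of calls is given for them. The total of all FPKM values was 423985 and 419349 in IP against 334759 and 335119 in input, so a change close to 0 depends on how libraries are scaled. The deposited confidence limits of the 7 subunit genes had a half-width between 2.94% and 25.8% of the value.

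Gabra2, Gabra4 and Gabrb1 lie in one cluster on chromosome 5. In the files' mm10 coordinates Gabra2 spans chromosome 5 from 70961057 to 71095849, Gabra4 from 71569734 to 71658308 and Gabrb1 from 71700016 to 72137244, each as the whole gene with its exons and introns. Only 41.7 kb separate Gabra4 from Gabrb1, and 473.9 kb separate Gabra2 from Gabra4. Gabrg1, a gamma subunit gene, lies 118.4 kb before Gabra2. The other members lie elsewhere, Gabra5 on chromosome 7 from 57407669 to 57510009, Gabrb2 on chromosome 11 from 42419757 to 42632591, Gabrd on chromosome 4 from 155384979 to 155398069 and Gabra3 on chromosome X from 72432676 to 72656246.

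For each of the 3 chromosome 5 members, the 250 bases before the RefSeq start nearest to the gene start in the files are shown because these neighbours differed in level. As deposited, Gabra2 and Gabrb1 also had similar changes in the precipitate while Gabra4 was level. After a correction for transcript length the log2 changes of Gabra2 and Gabrb1 were -1.12 and -0.58. The bases shown come from RefSeq (GRCm38.p6, the same assembly as mm10), read 5′ to 3′ along each gene. Capitals mark GC boxes, written GGGCGG on one strand and CCGCCC on the other.
Gabra2 (chr5:71095850-71096099, minus strand): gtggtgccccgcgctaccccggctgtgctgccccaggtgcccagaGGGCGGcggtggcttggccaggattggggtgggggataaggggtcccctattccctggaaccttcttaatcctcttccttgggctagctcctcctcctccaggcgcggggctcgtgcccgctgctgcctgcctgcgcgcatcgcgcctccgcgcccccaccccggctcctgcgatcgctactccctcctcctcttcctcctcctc
Gabra4 (chr5:71658309-71658558, minus strand): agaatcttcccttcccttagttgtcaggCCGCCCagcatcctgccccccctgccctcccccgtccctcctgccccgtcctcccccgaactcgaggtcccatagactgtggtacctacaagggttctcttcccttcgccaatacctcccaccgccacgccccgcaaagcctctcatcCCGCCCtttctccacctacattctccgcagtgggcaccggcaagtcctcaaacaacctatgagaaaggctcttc
Gabrb1 (chr5:71699682-71699931, plus strand): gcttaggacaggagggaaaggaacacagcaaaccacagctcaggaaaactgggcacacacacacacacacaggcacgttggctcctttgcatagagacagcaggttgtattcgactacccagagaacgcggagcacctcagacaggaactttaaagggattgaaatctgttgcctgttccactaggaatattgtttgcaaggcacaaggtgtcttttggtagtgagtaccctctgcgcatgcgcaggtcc

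The Gabra2 window held 1 GC box, the Gabra4 window 2 and the Gabrb1 window 0, and 32.7% of 32851 windows of this length before RefSeq starts held at least 1. GC content was 70% for Gabra2, 61.2% for Gabra4 and 50.8% for Gabrb1, against a median of 52.4% over all windows. The Gabra2 window had 18 CpG dinucleotides, the Gabra4 window 12 and the Gabrb1 window 6, where the median was 6. The Gabra2 and Gabra4 starts match the ends of the genes in the files, and the Gabrb1 start lies 84 bases from it. Gabrb1 has a further RefSeq start 42095 bases from the one in the files, and the window before it, at chr5:71657671-71657920, lies within the span of Gabra4. That window had a GC content of 64.4%, 18 CpG dinucleotides and 0 GC boxes, so the composition given for Gabrb1 depends on which start is taken. Which start these libraries used was not measured. RefSeq windows were matched for 6 of the 7 members, and Gabrd had none. A motif match is a description of letters, and binding was not measured.

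Among the alpha subunits, transcripts of Gabra2, Gabra5 and Gabra3 were lower in the precipitate and Gabra4 was level as deposited. Gabra2 encodes alpha2, a synaptic subunit found at the start of the axon and linked to the calming effect of benzodiazepines. It had 4.01 and 4.99 FPKM in the IP libraries, against 12.5 and 13.2 FPKM in the input libraries. Both IP values lay far below both input values, and the deposited confidence limits of the groups did not overlap. Input was 2.86-fold above IP, a log2 change of -1.34 (SE 0.102) on the log2(FPKM + 1) scale, which understates the change of low genes (limma, adjusted p = 9.52e-05). Only 3.62% of all genes tested had a lower log2 change.

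Gabra5 encodes alpha5, a subunit of mostly extrasynaptic receptors. Its levels were 14.2 and 14.8 FPKM in IP, against 22.3 and 23.6 FPKM in input. The 2 libraries of each group lay close together and the groups stood apart, their confidence limits included. Gabra5 fell by 0.63 on the log2 scale (SE 0.0612), a ratio of 1.59 for input over IP (limma, adjusted p = 0.000227). The predicted gene Gm9962 overlaps 2.27 kb of the Gabra5 locus in the files and reached at most 4.12 FPKM, and reads of overlapping genes cannot be told apart where strand is not recorded.

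Gabra3, which encodes alpha3, had the highest level of the 7 genes in every library. It had 28.4 and 27.1 FPKM in IP, against 34.3 and 34.8 FPKM in input. The groups did not overlap, but the difference was small. Gabra3 fell by 0.31 (SE 0.0538; limma, adjusted p = 0.00265), with input 1.25-fold above IP.

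Gabra4 encodes alpha4, the usual partner of delta in the forebrain. It had 21.8 and 21.4 FPKM in IP, against 22.0 and 20.6 FPKM in input. Both IP values lay between the 2 input values. The log2 change was 0.02 (SE 0.0592) and did not pass (limma, adjusted p = 0.768). With every library rescaled to the same sum it was -0.31 and lower in IP (adjusted p = 0.0039), with quantile normalization it was -0.14 (adjusted p = 0.0757), and it was just below 0 without input replicate 2 (-0.0216) and with median-of-ratios size factors (-0.00863).

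The 2 beta subunit genes went opposite ways in the values as deposited. Gabrb1, which encodes beta1, had 1.55 and 1.92 FPKM in IP, against 5.08 and 6.12 FPKM in input. All confidence limits of IP lay below those of input. Gabrb1 changed by -1.27 on the log2 scale (SE 0.117; limma, adjusted p = 0.000184), and its mean FPKM was 3.22-fold higher in input. Gabrb1 has the longest transcript of the 7, at 14401 bases in RefSeq with a coding length of 1326, so its FPKM rests on how much of the end of the gene the authors' annotation held. A correction for length across all genes gave -0.58 (adjusted p = 0.0045), and a pseudocount of 5 gave -0.65.

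Gabrb2, which encodes beta2, had 25.8 and 27.0 FPKM in IP, against 21.3 and 23.4 FPKM in input. Both IP values lay above both input values, by little. Gabrb2 rose by 0.23 (SE 0.0667; limma, adjusted p = 0.0214), with IP 1.18-fold above input. This call depended on the scaling and on single libraries. Rescaled libraries gave -0.10 (adjusted p = 0.236), and quantile normalized values gave 0.04 (adjusted p = 0.651). It was 0.16 without input replicate 1 (adjusted p = 0.119), 0.20 without IP replicate 2 (adjusted p = 0.0884), and the adjusted p was 0.104 without the filter on low values.

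Gabrd, which encodes delta, differed between the IP libraries more than between the groups. It had 22.0 and 15.9 FPKM in IP, against 16.0 and 16.4 FPKM in input. IP replicate 1 lay above both input libraries, and IP replicate 2 lay just below them. The log2 change was 0.19 (SE 0.139) and did not pass (limma, adjusted p = 0.251). IP replicate 1 decided its sign, since the change was -0.0283 without it (adjusted p = 0.76) and 0.42 without IP replicate 2 (adjusted p = 0.00463). Rescaling (-0.13) and the length correction (-0.0239) also put it below 0.

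**Figure D1:**
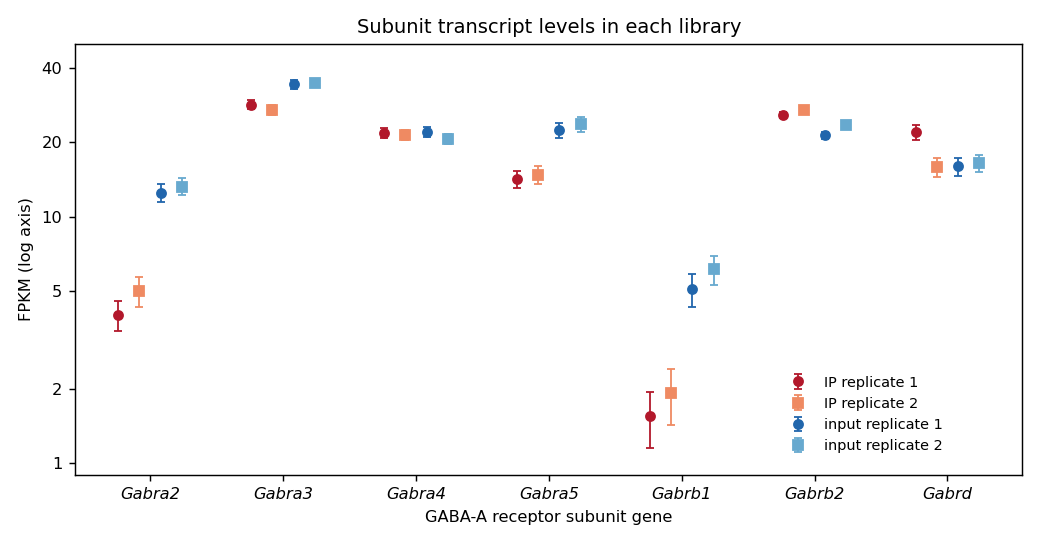
Level of each of the 7 subunit genes in each library, as FPKM on a log axis, with bars for the deposited confidence limits. The IP points of Gabra2 and Gabrb1 lie well below the input points, those of Gabra5 and Gabra3 lie below them, and those of Gabra4, Gabrb2 and Gabrd lie close to them.

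Of the 7 genes, 4 were lower in IP, 1 was higher and 2 did not pass. Over all genes tested, 33.9% were lower and 37% higher, and 70.9% passed in either direction. The count of 5 called of 7 is near that background. The median log2 change of the 7 was -0.31, beside 0.03 over all genes tested. Both IP values lay outside both input values for 5 of the 7 genes, which is below the 86.4% of all genes for which this held. After rescaling 5 were lower and 0 higher, where 53.8% of all genes were lower and 17.9% higher and the median over all genes was -0.29. With quantile normalization 4 were lower and 0 higher, where 30.2% of all genes were lower and 35.3% higher. Rescaling moved Gabra3 to -0.65 and Gabra5 to -0.99, and quantile normalization moved Gabra3 to -0.54. IP and input of a replicate came from the same mice, so a change sets RNA bound to tagged ribosomes against total RNA. In these bulk libraries a transcript's level in the tagged cells, its binding to ribosomes and RNA carried over from other cells cannot be told apart.

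**Figure D2:**
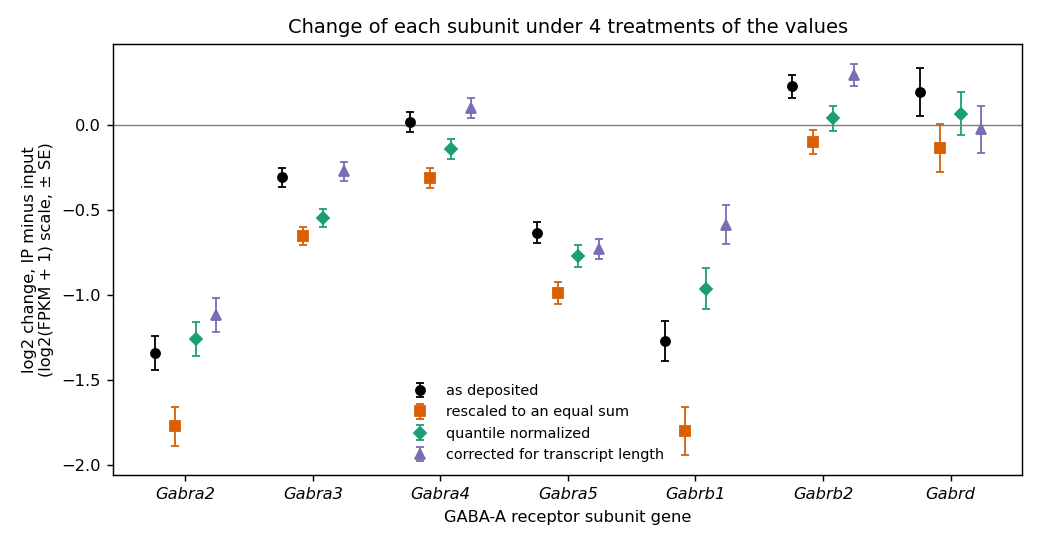
Log2 change of each subunit gene, IP minus input, on the log2(FPKM + 1) scale with bars of 1 SE, for the values as deposited and after 3 other treatments. Gabra2, Gabra3, Gabra5 and Gabrb1 stay below 0 in all 4, while Gabra4, Gabrb2 and Gabrd lie on either side of 0.

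Summed levels, which depend on the scaling between libraries, set the subunit classes side by side. The 7 transcripts summed to 117.7 and 113.0 FPKM in IP against 133.4 and 138.4 FPKM in input. The beta sum was 27.3 and 28.9 FPKM in IP against 26.4 and 29.6 FPKM in input, so the groups overlapped as deposited. With every library rescaled to a sum of 1000000 they did not, at 65.0 and 69.5 in IP against 79.8 and 89.6 in input. The alpha sum was lower, at 68.4 and 68.2 FPKM in IP against 91.1 and 92.3 FPKM in input, and it was also lower after rescaling, at 162.8 and 163.8 in IP against 275.2 and 279.7 in input.

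The order of levels differed between the groups. In IP the order by mean was Gabra3, Gabrb2, Gabra4, Gabrd, Gabra5, Gabra2 and Gabrb1, and the values of Gabra4 and Gabrd overlapped, as did the confidence limits of Gabra3 and Gabrb2 in IP replicate 2. In input it was Gabra3, Gabra5, Gabrb2, Gabra4, Gabrd, Gabra2 and Gabrb1, where the values of Gabra5 and Gabrb2 overlapped, as did those of Gabrb2 and Gabra4. Gabra5 thus stood in the fifth place in IP and in the second in input.

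Shares and ratios within a library do not depend on the scaling between libraries. The values behind them carry no correction for transcript length. Gabra2 made up 3.40% and 4.42% of the 7-gene sum in IP, against 9.36% and 9.56% in input. Gabra5 made up 12.1% and 13.1% in IP, against 16.7% and 17.1% in input. Both shares were lower in each IP library than in either input library. Gabrb2 made up 21.9% and 23.9% in IP, against 16.0% and 16.9% in input. Gabra4 made up 18.6% and 18.9% in IP, against 16.5% and 14.9% in input. The shares of these 2 genes were higher in both IP libraries. Gabrd, at 18.7% and 14.0% in IP against 11.96% and 11.89% in input, also had the higher share in both, with a wide gap between the IP libraries. The share of Gabra3 differed least relative to its size, at 24.1% and 24.0% in IP against 25.7% and 25.2% in input. The shares are given as a description, with no test, and they are of the 7 genes, not of all receptor subunits.

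**Figure D3:**
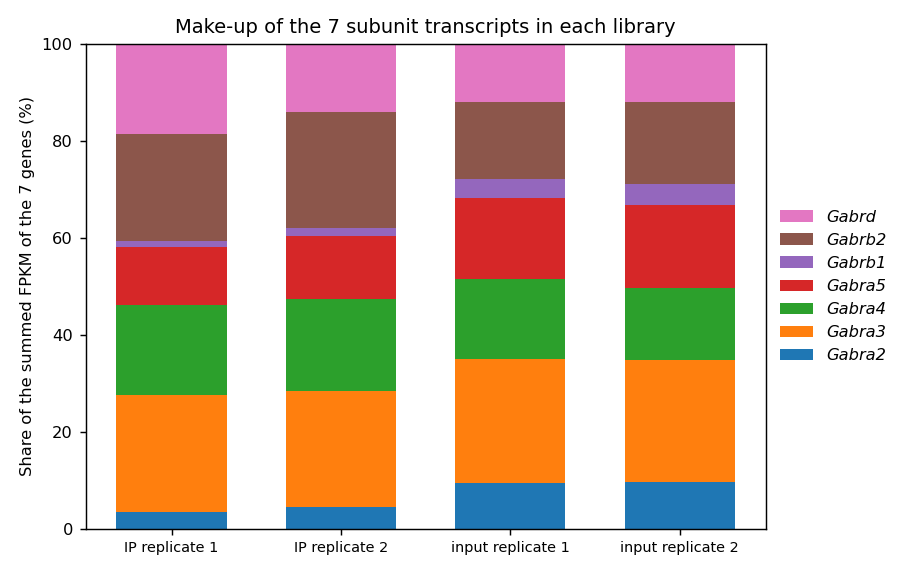
Share of each gene in the summed FPKM of the 7 subunit genes, in percent, for each IP and input library. Gabra2, Gabra5 and Gabrb1 take a smaller part of the IP bars and Gabrb2, Gabra4 and Gabrd a larger part.

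Within the chromosome 5 cluster the neighbours separated. The ratio of Gabra4 to Gabrb1 was 14.1 and 11.1 in IP, against 4.32 and 3.37 in input. The ratio of Gabra4 to Gabra2 was 5.45 and 4.28 in IP, against 1.76 and 1.56 in input. The ratio of Gabra2 to Gabrb1 differed less, at 2.58 and 2.59 in IP against 2.46 and 2.16 in input. Their likeness held as deposited, but the correction for transcript length gave a log2 change of -1.12 for Gabra2 and -0.58 for Gabrb1. The same correction gave 0.10 for Gabra4 and 0.30 for Gabrb2, so the changes of both lay nearer to that of Gabrb1 than as deposited. Of the 2 beta transcripts Gabrb2 made up 94.3% and 93.3% in IP, against 80.8% and 79.3% in input. Among the 4 alpha transcripts Gabra2 held 5.85% and 7.31% in IP, against 13.7% and 14.3% in input, and Gabra4 held 31.9% and 31.3% in IP, against 24.1% and 22.4% in input.

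The closest patterns over the 4 libraries were measured as the Euclidean distance between centred log2(FPKM + 1) values. Among the members, Gabra2 and Gabrb1 lay nearest to each other in the values as deposited, at 0.136. Nearest to Gabra2 among all genes were Rfx4 at 0.0206, Plekho2 at 0.0533 and Krt2 at 0.0545. Plekho2 had 0.603 and 0.863 FPKM in IP, against 3.10 and 3.46 FPKM in input. Krt2 had 0.237 and 0.406 FPKM in IP, against 2.27 and 2.40 FPKM in input. Both passed the filter on low values through input alone. The log2(FPKM + 1) scale understates the change of such low genes, so a short distance to Gabra2 does not mean an equal ratio. Nearest to Gabrb2 were Dpp6 at 0.0111, Os9 at 0.0176 and Scaf1 at 0.0223. Rfx4 had 0.782 and 1.11 FPKM in IP, against 3.85 and 4.11 FPKM in input, and Dpp6 had 47.1 and 49.6 FPKM in IP, against 39.6 and 43.2 FPKM in input. With 4 libraries in 2 groups many genes share such a pattern.

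Nearly all other subunit genes described here were low. Of 9 such genes, 2 passed the filter on low values. Gabrg3, a gamma subunit gene, had 1.33 and 1.50 FPKM in IP, against 0.981 and 1.01 FPKM in input. Gabrg3 rose by 0.28 (limma, adjusted p = 0.0361), a call lost in 6 settings, with an adjusted p of 0.406 after rescaling and of 0.0554 to 0.147 with any 1 library left out. Gabrg1 had 3.83 and 5.68 FPKM in IP, against 3.85 and 4.21 FPKM in input, and did not pass (adjusted p = 0.345). IP replicate 2 set its value, with a change of -0.0581 without that library and of 0.41 without IP replicate 1 (adjusted p = 0.0165). It was also past the threshold with quantile normalization (0.44, adjusted p = 0.0394) and below 0 after rescaling (-0.12). Gabre and Gabrq, which encode epsilon and theta, stayed between 0.19 and 0.752 FPKM in all libraries. The rho genes Gabrr1 and Gabrr2 reached at most 0.444 FPKM, Gabra6, known from cerebellar granule cells, was listed above 0 in IP replicate 2 alone at 0.0868 FPKM, and Gabrr3 and Gabrp were listed at 0 in all 4 libraries.

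Genes that assemble, move and anchor the receptor changed in both directions. The 20 genes tested held 12 that rose, 4 that fell and 4 not past the threshold, with a median of 0.22. Over all genes tested, 37% rose and 33.9% fell, and 70.9% passed in either direction. Rescaling left 3 higher and 8 lower, where 17.9% of all genes were higher and 53.8% lower. Quantile normalization left 4 higher and 6 lower, where 35.3% of all genes were higher and 30.2% lower. Gabarapl2 and Gabarap, members of the GABA-A receptor-associated protein family that also serves autophagy, rose by 1.04 and 0.71 (limma, adjusted p = 2.91e-05 and 7.75e-05). Gabarapl2 had 165 and 175 FPKM in IP, against 81.4 and 82.4 FPKM in input. Shisa7, which encodes an auxiliary subunit of GABA-A receptors, had 12.6 and 13.2 FPKM in IP, against 29.5 and 28.1 FPKM in input, a change of -1.10 (adjusted p = 3.79e-05). Plcl1, whose product binds beta subunits, changed by -0.41 (adjusted p = 0.0164), a call lost in 5 settings, among them quantile normalization (-0.14), correction for transcript length (-0.14), without IP replicate 2 (-0.30) and without input replicate 2 (-0.32). Gphn, the gene of the synaptic scaffold gephyrin, had 22.7 and 21.5 FPKM in IP, against 20.1 and 22.2 FPKM in input, and did not pass (0.06, adjusted p = 0.453). After rescaling Gphn was lower (-0.27, adjusted p = 0.0142), and it was below 0 with quantile normalization (-0.0972) and without input replicate 1 (-0.00671).

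The chloride gradient decides what an open GABA-A receptor does to a cell. The 8 chloride transport genes tested had a median of -0.20, with 2 that rose, 4 that fell and 2 not past the threshold. Beside them, 37% of all genes rose and 33.9% fell, or 17.9% and 53.8% after rescaling. After rescaling 0 were higher and 6 lower (median -0.54), with quantile normalization 1 was higher and 5 lower (-0.34), and the length correction turned the list to 4 higher and 3 lower (0.11). Slc12a2, which encodes the chloride importer NKCC1, had 1.38 and 1.81 FPKM in IP, against 6.01 and 6.08 FPKM in input, and changed by -1.45 (limma, adjusted p = 7.91e-05). Wnk1, the gene of a kinase that regulates such transporters, changed by -0.90 (adjusted p = 7.35e-05), or by -0.33 after correction for transcript length. Clcn3, a chloride transporter gene of intracellular membranes, rose by 0.40 (adjusted p = 0.00114), a call lost after rescaling (0.0723, adjusted p = 0.305). Stk39, a kinase gene of the same pathway, rose by 0.24 (adjusted p = 0.0166), a call lost without IP replicate 1 (adjusted p = 0.076), without either input library (adjusted p = 0.0548 and 0.11) and in 3 other settings, with -0.0845 after rescaling. Slc12a5, which encodes the neuronal chloride exporter KCC2 and was chosen after its values were seen, had 60.9 and 62.8 FPKM in IP, against 59.7 and 65.1 FPKM in input. Its change was -0.0119 (adjusted p = 0.868), but rescaling gave -0.35 (adjusted p = 0.00271), quantile normalization -0.34 (adjusted p = 0.0044) and the length correction 0.22 (adjusted p = 0.0151).

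Glycine receptors are the related chloride channels of the same superfamily. Of 3 tested genes, 2 rose and 1 fell, while rescaling left 1 higher and 1 lower and quantile normalization 1 higher and 0 lower. As deposited, 70.9% of all genes passed in either direction. Glrb, which encodes the beta subunit that binds gephyrin, had 55.1 and 52.1 FPKM in IP, against 40.4 and 39.9 FPKM in input, and rose by 0.41 (limma, adjusted p = 0.000723). That call was lost after rescaling (0.0755) and with quantile normalization (0.10). Glra2 rose by 0.76 (adjusted p = 0.00638), lost without input replicate 1 (adjusted p = 0.0804), without input replicate 2 (adjusted p = 0.0542) and without the filter (adjusted p = 0.118). Glra3 changed by -0.63 (adjusted p = 0.0052), lost with quantile normalization (-0.16) and without the filter (adjusted p = 0.0747). It had 0.741 and 0.774 FPKM in IP, against 1.43 and 2.05 FPKM in input, so it passed the filter through input alone.

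Most genes of GABA supply rose. Of 8 genes that make, load, take up or break down GABA, 6 rose and 2 fell, with a median of 1.31. The counts were the same after rescaling. Among all genes, 37% rose and 33.9% fell, or 17.9% and 53.8% after rescaling. Gad1, which encodes a GABA-synthesizing enzyme, rose by 2.25 and Slc32a1, which encodes the vesicular GABA transporter, by 2.24 (limma, adjusted p = 6.06e-06 and 5.58e-06). The 2 that fell were transporter genes known from glia and meninges, Slc6a13 at -1.87 and Slc6a11 at -1.57 (adjusted p = 3.9e-05 and 0.00012). Slc6a13, at 0.356 and 0.378 FPKM in IP against 3.65 and 4.35 FPKM in input, passed the filter through input alone (adjusted p = 0.0091 without the filter). Slc6a11, the astrocyte uptake gene, had 5.40 and 7.06 FPKM in IP, against 18.8 and 21.9 FPKM in input. The 6 genes of neurosteroid supply and related modulators had a median of -0.07, with 2 that fell, 0 that rose and 4 not past the threshold. Quantile normalization turned this to 4 higher and 2 lower (median 0.26), and rescaling gave 0 higher and 4 lower (-0.38). Tspo, the gene of a mitochondrial membrane protein of glia, changed by -1.28 (adjusted p = 0.000168, and 0.0166 without the filter). It had 0.379 and 0.607 FPKM in IP, against 2.45 and 2.78 FPKM in input, and passed the filter through input alone. Dbi, which encodes a peptide that binds at the benzodiazepine site, changed by -0.70 (adjusted p = 0.00096, and 0.0511 without the filter).

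The summed levels of astrocyte, glutamatergic and microglial markers given above were lower in the same IP libraries as Gabra2, Gabrb1, Gabra5 and Gabra3. So were those of oligodendrocyte markers, at 106 and 119 FPKM in IP against 497 and 461 FPKM in input. The sums of oligodendrocyte precursor, endothelial and mural markers were lower as well. The part of any of these cell types in the changes of the subunit genes was not tested.

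**Figure D4:**
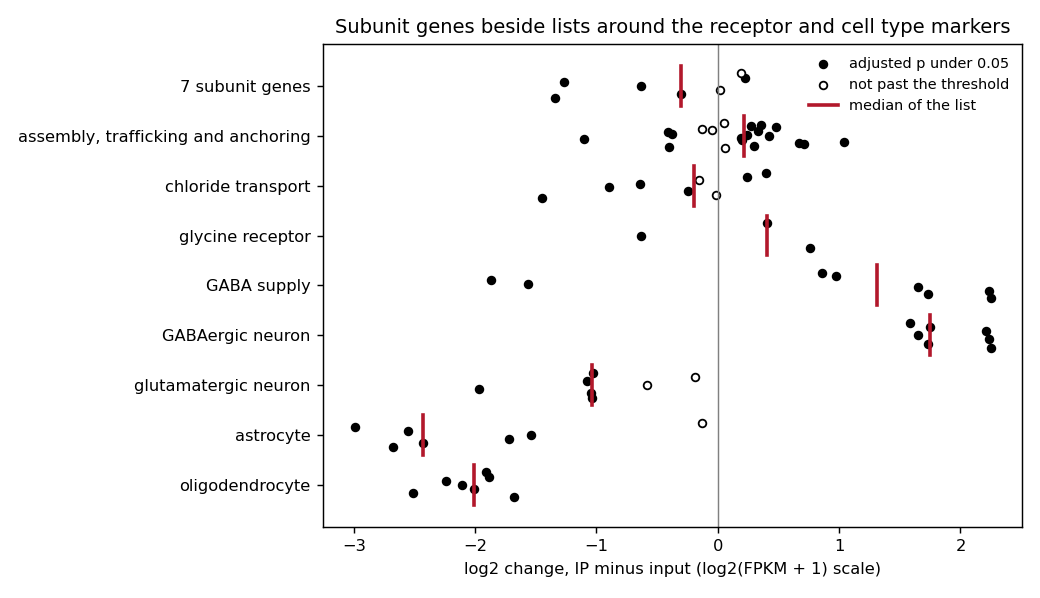
Log2 change, IP minus input, of every tested gene in 9 lists, with filled points for genes past an adjusted p of 0.05, open points for the others and a bar at each list's median. The 7 subunit genes spread from -1.34 to 0.23, with a median between those of the glial lists on the left and of the GABAergic list on the right. The astrocyte list, from -2.99 to -0.127, and the glutamatergic list, from -1.97 to -0.188, overlap them in range.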

How the data were processed

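The values are gene-level FPKM with lower and upper confidence limits, made by the authors with Cufflinks for each library, per the file headers. TopHat at default settings placed the 100 bp reads on mm10 with the iGenomes UCSC genes, per the series' design text. Tool versions and the strandedness of counting are not given in the sources used here. The library kit was TruSeq RNA, per the labels. No scaling between libraries is recorded and read totals are not in the tables, so depth is known only through the confidence limits. The Cuffdiff output was not analysed here.

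Sample titles gave the groups and replicate numbers. Left out were 8 entries that failed and 1276 with small RNA names, and a symbol with several entries kept its highest. A gene was tested where 2 or more libraries had an FPKM of 1 or more. The log2(FPKM + 1) values went into limma 3.58.1 under R 4.3.3 (lmFit, then eBayes with trend, no block, two-sided), and p-values were adjusted over all genes by Benjamini-Hochberg, with a threshold of 0.05. The fit was tested on simulated data. The design text pairs each IP with the input of the same mice, so replicate numbers pair the libraries, and replicate 1 deviations from the group means correlated at 0.163 across genes. No FPKM of 5 or more was identical between replicates. The p-values rest on the spread of 2 pools per group, with each gene's variance drawn toward a trend over all genes tested. The main fit, having no block, treated the paired libraries as separate.

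GENCODE M21 gave transcript lengths for 99.4% of the genes tested. Alternatives changed the pseudocount, filter, scaling, block, variance model, entries per symbol and transcript length, or left out each library in turn. The members and lists were chosen with earlier results of these data known. The text names all 7 members, other subunit genes, and of each list around the receptor the 2 largest rises and falls among called genes with groups apart, besides Npy, Gphn and Slc12a5. Nearest patterns were listed for the members with the largest rise and fall, without predicted genes. Some subunit genes of the list are not reported here. Tables and plots used Python 3.11.15, pandas 2.3.3, numpy 2.4.6 and matplotlib 3.10.9.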

Additional observations from a re-analysis of the deposited data

How the results depend on the processing

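Gabra2, Gabra3, Gabra5 and Gabrb1 were lower in IP and past the threshold in all 16 alternatives, at -1.77 to -0.91, -0.65 to -0.27, -0.99 to -0.52 and -1.80 to -0.58 on the log2 scale. The count of members higher in IP was 0 after rescaling to a sum of 1000000, with quantile normalization and without the filter, and 0 to 1 with each library left out, against 1 for Gabrb2. The count of lower members was 4 with any library left out, and the median of the members, -0.31, was -0.65 after rescaling, -0.54 with quantile normalization and -0.34 to -0.27 with a library left out. Over all genes, 4597 were higher and 4205 lower. These counts were 2226 and 6684 after rescaling, 2437 lower with a filter at FPKM of 5, where fewer genes were tested, and 3760 to 4235 higher and 3330 to 4019 lower with a library left out. Changes that took the other sign were those of Gabra4 (-0.31 after rescaling, -0.00863 with median-of-ratios size factors, -0.14 with quantile normalization, -0.0216 to 0.0634 with a library left out), Gabrb2 (-0.10 after rescaling), Gabrd (-0.13 after rescaling, -0.0239 with the length correction, -0.0283 to 0.42 with a library left out), Gabrg1 (-0.12 after rescaling, -0.0581 to 0.41 with a library left out), Gphn (-0.27 after rescaling, -0.0972 with quantile normalization, -0.00671 to 0.13 with a library left out), Stk39 (-0.0845 after rescaling) and Slc12a5 (0.22 with the length correction, -0.0734 to 0.0496 with a library left out). Apart from these alternatives' own construction, the cause was not tested. With the replicate number as a block, 1 member was higher and 4 lower, the median was -0.31, and 4746 genes were higher and 4371 lower, so the pairing changed no call of a member. The half-width of the confidence limits, up to 25.8% of the value for Gabrb1 in IP, limits how closely its change is known.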
